A study of Mus musculus with 9 samples.

Results

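The 120 genes described here encode the respiratory chain and were found by name among the 24062 named genes of the count table: every gene whose symbol starts with mt-, Nduf followed by a, b, c, s or v, Uqcr, Cox4 to Cox8 or Atp5, together with Sdha, Sdhb, Sdhc, Sdhd and Cycs. Of these, 22 are encoded in the mitochondrial genome and 98 in the nucleus. RNA was sequenced in 9 libraries, 3 for each of 3 T cell populations. DP cells, positive for a green reporter and for Foxp3, and SPR cells, positive for the green reporter alone, were sorted from one kind of Th17 culture, in 5 ng/ml TGFβ plus 20 ng/ml IL6. SPF cells (Foxp3+) came from a Treg culture, in 10 ng/ml TGFβ plus 5 ng/ml IL2. Every group started from spleen T cells isolated as naive CD4+ cells, was activated with anti-CD3 and anti-CD28 beads, and was harvested on day 3. The donors in all groups were male F1 mice of 6 to 10 weeks that carried 1 copy of each reporter, a Gfp transgene and an RFP knocked in behind Foxp3. The green reporter is a transgene and so reads the activity of its promoter, and how many mice stand behind a library was not given in the sources used here. Population, cytokines and TGFβ dose differ together between either Th17-culture population and SPF, so their shares in a difference cannot be told apart.

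The respiratory chain sits in the inner mitochondrial membrane. Complexes I and II pass electrons from NADH and succinate to ubiquinone, complex III hands them to cytochrome c, complex IV gives them to oxygen, and complex V, the ATP synthase, uses the proton gradient that results. Most subunits are encoded in the nucleus and imported, while the mitochondrial genome encodes a few core subunits of complexes I, III, IV and V, with the ribosomal RNAs and tRNAs that translate them. Activated T cells are known to enlarge their mitochondrial content as they grow.

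Levels are given as CPM, which are counts scaled to the same total in every library. Totals ran from 1495152 counts (DP replicate 3) to 3759662 (SPR replicate 3), so that 1 count was worth 0.266 to 0.669 CPM, and all intervals given here cover counting error only. Foxp3, which marks regulatory T cells and drives the red reporter, followed the labels, at 77.2 to 130 CPM in DP and 6.38 to 7.33 CPM in SPR, against 209 to 244 CPM in SPF. All 8 T cell markers examined had counts in every group. Of the 120 members, 94 passed 10 CPM in 1 library or more and entered the tests, 85 of the nuclear-encoded and 9 of the mitochondrial-encoded ones. Among the other 26 were 13 nuclear-encoded members, 7 of them pseudogenes by name, and 12 mitochondrial tRNAs.

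The mitochondrial genes lie side by side on chromosome M and are cut from long precursor transcripts, after which the messenger RNAs receive poly(A) tails. MARS-seq, the method of these libraries, primes on poly(A) and counts 3′ ends, so the annotated last bases of each gene are shown here. Where the reads of these libraries began was not analysed. They are from the GRCm38 annotation, 5′ to 3′ on the coding strand, with the letters of the stop codon that the gene itself carries in capitals. The ribosomal RNAs have no stop codon and no capitals.
mt-Nd4 (chrM:11515-11544, strand +): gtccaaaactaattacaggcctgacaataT
mt-Cytb (chrM:15259-15288, strand +): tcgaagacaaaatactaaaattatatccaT
mt-Nd1 (chrM:3678-3707, strand +): tttacagcgggagtaccaccatacataTAG
mt-Nd2 (chrM:4922-4951, strand +): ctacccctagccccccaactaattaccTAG
mt-Nd5 (chrM:13536-13565, strand +): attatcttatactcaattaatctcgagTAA
mt-Co1 (chrM:6843-6872, strand +): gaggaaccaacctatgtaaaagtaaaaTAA
mt-Rnr1 (chrM:995-1024, strand +): aagcatactggaaagtgtgcttggaataat
mt-Rnr2 (chrM:2646-2675, strand +): atacgtacaccctctaacctagagaaggtt
In mt-Nd4 and mt-Cytb a single T is left after the last whole codon, and the poly(A) tail supplies the rest of the stop codon. The other 4 genes, as annotated, end in a complete TAG or TAA. The annotated ends of mt-Nd1 and mt-Nd2 overlap tRNA genes on the same strand, mt-Ti from position 3706 and mt-Tw from position 4950. Whether their messenger RNAs keep the whole TAG was not analysed. All 8 are read from the same strand. The only member on the opposite strand among the messenger RNAs, mt-Nd6 (complex I), had 1 count in the 9 libraries. The annotation holds 13 protein-coding genes on chromosome M, of which 7 are in the count table and 6 have no row in it. The mitochondrial-encoded sums given here leave those 6 out.

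The mitochondrial-encoded RNAs set DP replicates 2 and 3 apart from the other 7 libraries. Summed over all 22 genes, they reached 542, 2872 and 5214 CPM in DP (replicates 1, 2 and 3 in this order, as throughout), against 550, 238 and 328 CPM in SPR and 563, 206 and 576 CPM in SPF. DP replicate 1 lay within the range of SPR and of SPF, and the other DP libraries lay above every library of either. The group means were 2876 ± 2336 CPM in DP, 372 ± 160 CPM in SPR against 449 ± 210 CPM in SPF (SD, n = 3 each). The spread of DP was nearly as large as its mean. These sums were a small part of each library, from 0.0206% of its counts in SPF replicate 2 to 0.521% in DP replicate 3.

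**Figure D1:**
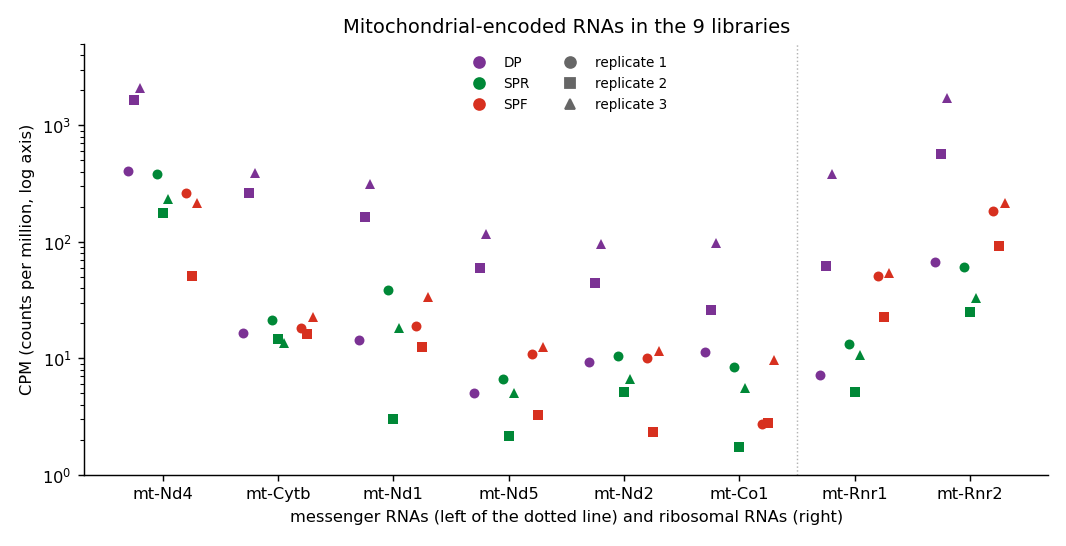
CPM on a log axis for 6 mitochondrial messenger RNAs and both ribosomal RNAs, with 1 point per library, colours for DP, SPR and SPF and marker shapes for replicates 1 to 3. DP replicates 2 and 3 stand above the other libraries for most genes, with mt-Nd4 at 1665 and 2100 CPM, while DP replicate 1, at 403 CPM, is near the SPR and SPF points.

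The most counted member of this class was mt-Nd4, which encodes a core membrane subunit of complex I. It had 403, 1665 and 2100 CPM in DP, against 382, 176 and 233 CPM in SPR and 263, 50.7 and 215 CPM in SPF. Its groups did not overlap between DP and SPR or between DP and SPF, though DP replicate 1 exceeded SPR replicate 1 by little. The complex III core subunit mt-Cytb had 16.4, 264 and 387 CPM in DP, against 21.3, 14.6 and 13.6 CPM in SPR and 18.1, 16.3 and 22.8 CPM in SPF. Here DP replicate 1 fell inside the other groups and the other DP libraries far outside them.

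The remaining complex I messenger RNAs had the same 2 high libraries. For mt-Nd1 the values were 14.3, 163 and 312 CPM in DP, 38.7, 3.01 and 18.3 CPM in SPR, and 19.1, 12.6 and 33.9 CPM in SPF. For mt-Nd5 they were 5.05, 60.1 and 116 CPM in DP, 6.63, 2.15 and 5.05 CPM in SPR, and 10.9, 3.26 and 12.5 CPM in SPF. For both genes DP replicate 1 was below replicate 1 of SPR and of SPF. For mt-Nd2 they were 9.26, 44.5 and 94.97 CPM in DP, 10.5, 5.17 and 6.65 CPM in SPR, and 9.98, 2.33 and 11.6 CPM in SPF. The complex IV core subunit mt-Co1 had 11.4, 26.2 and 97.0 CPM in DP, against 8.37, 1.72 and 5.59 CPM in SPR and 2.72, 2.79 and 9.76 CPM in SPF. Of the messenger RNAs, only mt-Co1 and mt-Nd4 had DP values that overlapped neither SPR nor SPF, where the DP values of 9.04% of all genes tested lay wholly above SPR and those of 19.2% above SPF.

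The 3′ ends of mt-Co1 and mt-Nd2 also occur elsewhere in the annotation, so their counts are uncertain. Of the 50-base windows in its last 300 bases, 100% in mt-Co1 are shared with 2 other annotated genes and 31.9% in mt-Nd2 with 1. For mt-Nd4, mt-Cytb, mt-Nd1, mt-Rnr1 and mt-Rnr2 no window was shared. The strand setting was not given in the sources used here, while mt-Nd5 overlaps mt-Nd6 on the opposite strand.

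Both ribosomal RNAs of the mitochondrial ribosome differed between the populations in another way. The large-subunit RNA mt-Rnr2 had 67.3, 572 and 1712 CPM in DP, against 61.4, 24.97 and 32.7 CPM in SPR and 186, 93.0 and 215 CPM in SPF. The small-subunit RNA mt-Rnr1 had 7.15, 61.7 and 381 CPM in DP, against 13.3, 5.17 and 10.6 CPM in SPR and 50.8, 22.8 and 53.9 CPM in SPF. For both, all SPR libraries lay below all SPF libraries, as was so for 17.1% of all genes tested. DP replicate 1 was close to SPR, and DP replicates 2 and 3 were above every SPF library.

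The share of ribosomal RNA among the mitochondrial-encoded counts was nearly constant in SPR and varied in DP. It was 13.7%, 22.1% and 40.1% in DP replicates 1, 2 and 3, with 95% Wilson intervals of 11.96 to 15.7%, 21.1 to 23.0% and 39.1 to 41.2%. In SPR it was 13.6%, 12.7% and 13.2% (95% Wilson intervals within 10.1 to 15.7%), and in SPF 41.9%, 56.2% and 46.6% (within 39.2 to 60.8%). The interval of DP replicate 1 overlapped those of SPR, that of DP replicate 3 overlapped the lowest of SPF, and DP replicate 2 lay between. The share of mt-Nd4 was 74.3%, 58.0% and 40.3% in DP replicates 1, 2 and 3, against 69.5 to 73.8% in SPR and 24.6 to 46.6% in SPF.

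**Figure D2:**
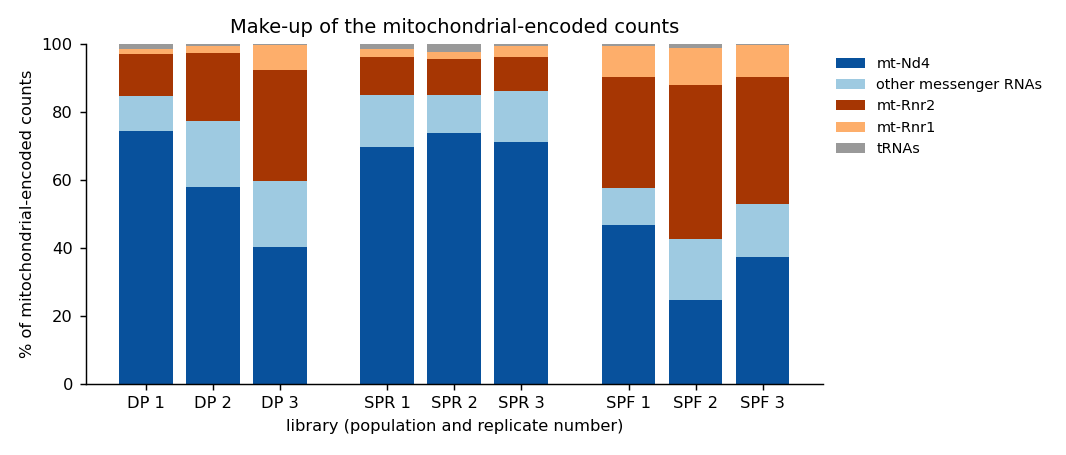
Share of each library's mitochondrial-encoded counts, in percent, taken by mt-Nd4, the other messenger RNAs, mt-Rnr2, mt-Rnr1 and the tRNAs, with 1 bar per library in the order DP, SPR and SPF. The ribosomal RNA share is 13.7 to 40.1% in DP, 12.7 to 13.6% in SPR and 41.9 to 56.2% in SPF.

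Of the 13 mitochondrial tRNAs in the table, mt-Tt (threonine) alone passed the filter, through DP replicate 3. It had 0, 6.54 and 11.4 CPM in DP, against 2.44, 0.430 and 0.532 CPM in SPR and 0.454, 0.930 and 0.465 CPM in SPF, and was called in no comparison. Its gene begins on the base after mt-Cytb, at position 15289. The 13 tRNAs summed to 8.41, 15.9 and 14.7 CPM in DP, 7.33, 5.60 and 2.39 CPM in SPR, and 3.18, 2.33 and 2.32 CPM in SPF.

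Whether DP and SPR differed was tested on the counts with edgeR's quasi-likelihood test and Benjamini-Hochberg adjustment over 9310 genes, with a call at an adjusted p under 0.05. In the fit of all 9 libraries, 0 of the 9 mitochondrial-encoded genes tested were called for DP against SPR, where 0.0107% of all genes were called. At an unadjusted p under 0.05 there were 8 of 9, against 6.57% of all genes, and DESeq2 called 4 (mt-Rnr2, mt-Cytb, mt-Co1 and mt-Nd2), against 0.473% of all genes. Mitochondrial genes share precursor transcripts and were high in the same DP libraries, so counts out of 9 are not counts of independent genes. Of the 9, mt-Co1 and mt-Tt had passed the filter only through DP libraries, so that being higher in DP was a condition of their test. The fitted log2 fold changes of DP over SPR ran from 2.25 (mt-Tt) to 4.27 (mt-Rnr2), with standard errors of 0.644 to 1.15. Over all genes tested, SPR and DP libraries of the same replicate number deviated together. The mitochondrial-encoded sums did not, since replicate 1 was the lowest of DP (542 CPM) and the highest of SPR (550 CPM). With the replicate number as a block in a fit of the 6 SPR and DP libraries, 7 of the 9 were called, all higher in DP. The 6-library fit called 3.48% of all genes, 1.97% as higher.

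In the fit with the replicate block, mt-Rnr2 was higher in DP by 3.60 on the log2 scale (SE 0.844, edgeR adjusted p = 0.0390) and mt-Rnr1 by 3.22 (SE 0.758, adjusted p = 0.0393). Among the messenger RNAs, mt-Nd5 was higher by 3.34 (SE 0.631, adjusted p = 0.0163), mt-Cytb by 3.19 (SE 0.687, adjusted p = 0.0290) and mt-Nd4 by 2.20 (SE 0.505, adjusted p = 0.0365). The calls for mt-Nd2 (2.42) and for mt-Co1 (2.80), which was admitted through DP, were of like size, and mt-Nd1 was not called (2.63, SE 0.857, adjusted p = 0.140). These calls depended on replicate 3. Without replicate 3 the block fit called 0 of 9, without replicate 2 it called 8 and without replicate 1 it called 9, and DESeq2 with the same block called 0. A block added to the fit of all 9 libraries also left 0 called. With DP replicates 2 and 3 left out, DP is 1 library, assumed in the fit to vary like the other groups, and the log2 fold changes of mt-Cytb, mt-Nd1 and mt-Rnr1 were -0.09, -0.58 and -0.54.

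Taken pair by pair, DP and SPR differed least in replicate 1. The summed mitochondrial-encoded CPM of DP was 0.986 times that of SPR in replicate 1, 12.1 times in replicate 2 and 15.9 times in replicate 3. In replicate 1, 3 of the 9 genes tested were higher in DP, against 57.4% of all genes tested. In replicates 2 and 3 it was 9 of 9, against 52.7% and 52.0% of all genes. In replicate 3 the ratio was 52.3 for mt-Rnr2 and 35.8 for mt-Rnr1, above the 9.0 for mt-Nd4, and in replicate 2 it was 22.9, 11.9 and 9.48 for the same genes.

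**Figure D3:**
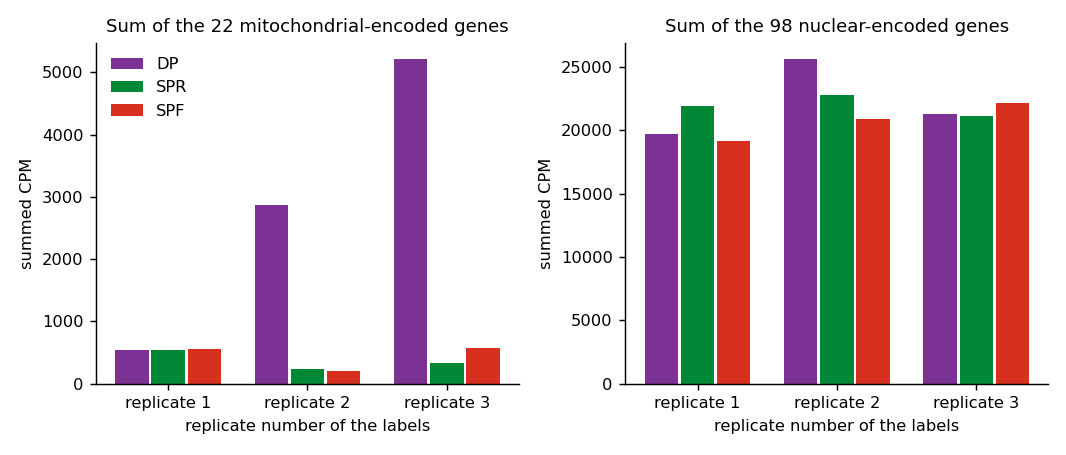
Summed CPM of the 22 mitochondrial-encoded (left) and the 98 nuclear-encoded genes (right) for DP, SPR and SPF within each replicate number. The mitochondrial-encoded sum of DP is 542 CPM in replicate 1, 2872 CPM in replicate 2 and 5214 CPM in replicate 3, whereas the nuclear-encoded sum stays between 19137 and 25641 CPM in all 9 libraries.

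Against SPF, the 9-library fit called 4 of the 9 mitochondrial-encoded genes, all higher in DP, where 13.7% of all genes were called and 7.55% as higher. The log2 fold change of DP over SPF was 2.94 for mt-Nd4 (SE 0.661, edgeR adjusted p = 0.0166), 3.48 for mt-Cytb (SE 0.810, adjusted p = 0.0192), 3.05 for mt-Co1 (SE 0.825, adjusted p = 0.0344), which entered the test only through DP libraries, and 2.56 for mt-Nd2 (SE 0.737, adjusted p = 0.0437). For mt-Rnr2 it was 2.21 (SE 0.827, adjusted p = 0.0995) and for mt-Rnr1 1.76 (SE 0.942, adjusted p = 0.234), which were not called. The count was 0 without DP replicate 2, 0 without DP replicate 3, 0 without both, and 8 without DP replicate 1. Without either SPF replicate 1 or SPF replicate 2 it was 1.

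Between SPR and SPF, the 9-library fit called 0 of the 9 genes, with 1 (mt-Rnr2) at an unadjusted p under 0.05, against 16.7% called and 32.1% under that unadjusted p among all genes, and DESeq2 called 0, against 19.7% of all genes. The log2 fold change of SPR over SPF was -2.06 for mt-Rnr2 (SE 0.846, adjusted p = 0.119) and -2.11 for mt-Rnr1 (SE 1.05, adjusted p = 0.191). The DP libraries, with their wide spread, enter that fit. A fit of the SPR and SPF libraries alone called both ribosomal RNAs lower in SPR (mt-Rnr2 adjusted p = 0.0136, mt-Rnr1 adjusted p = 0.0148), and called 14.0% of all genes, 6.38% as lower. For mt-Nd4 the 9-library value was 0.58 (SE 0.622, adjusted p = 0.559), and the other 5 messenger RNAs tested ran from -0.92 (mt-Nd5) to 0.06 (mt-Co1).

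Other RNA classes were set beside these values, as signs of RNA quality and of other cells. DP replicate 3 was the shallowest library. Malat1, a nuclear RNA, had 910, 344 and 293 CPM in DP, 234, 540 and 418 CPM in SPR, and 467, 286 and 211 CPM in SPF. Neat1, another nuclear RNA, had 133, 92.8 and 104 CPM in DP, 114, 124 and 110 CPM in SPR, and 78.0, 80.0 and 62.3 CPM in SPF. The 75 RNAs listed as nuclear or without a long poly(A) tail, both of these included, summed to 1379, 961 and 661 CPM in DP, 739, 1179 and 777 CPM in SPR, and 691, 678 and 637 CPM in SPF. From DP replicate 1 to replicate 2, Malat1 alone fell by more than this sum did. The 13 stress and immediate early genes examined summed to 1320 to 1727 CPM in DP, 1292 to 1507 CPM in SPR and 755 to 1248 CPM in SPF. Of the other cell types, B cell markers (6 of 6 in the table) summed to 205 to 496 CPM in DP, 140 to 395 CPM in SPR and 554 to 1518 CPM in SPF, nearly all from Ighm, with Ms4a1 at 0 in DP and SPF. Markers of erythroid cells (5 of 7 in the table) summed to at most 0.669 CPM in DP, 0.430 CPM in SPR and 19.98 CPM in SPF, those of CD8 and NK cells (5 of 6) to at most 27.8, 33.2 and 58.5 CPM, those of platelets (2 of 4) to at most 4.68, 3.44 and 4.08 CPM, and those of myeloid cells (8 of 9) to at most 2.86, 3.49 and 11.3 CPM, with Csf1r and Cd14 at 0 in every group. The part of any of these in the mitochondrial values was not tested.

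Genes outside the set with the pattern most like the summed mitochondrial-encoded CPM were found by Pearson's r of log2(CPM + 1) over the 9 libraries, among genes averaging 20 CPM or more. The first was Eif3e, a subunit of translation initiation factor 3 (r = 0.953), with 7.15, 53.5 and 76.9 CPM in DP, against 6.63, 6.46 and 9.84 CPM in SPR and 11.3, 6.05 and 13.5 CPM in SPF. The ribosomal protein gene Rpl22l1 (r = 0.948) had 9.68, 163 and 94.97 CPM in DP, 18.8, 7.32 and 8.51 CPM in SPR, and 19.5, 6.51 and 13.5 CPM in SPF. The other 8 were Ftsj1, Rpl39, Smg1, Cd53, Fam92a, Mtpn, Mrpl55 and Hipk3, with r from 0.851 to 0.918. The points share library and depth. Over the 7 libraries other than DP replicates 2 and 3, r was 0.560 for Eif3e, 0.847 for Rpl22l1 and 0.235 to 0.771 for the other 8.

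Of the nuclear-encoded members tested, Uqcrb, Cycs, Atp5d, Cox5a, Ndufa8 and Ndufb11 had DP replicates 2 and 3 above all other libraries. The share of all genes tested with that pattern was not counted, so nothing about the members is read from this list. In Atp5d the lead was narrow, with 1278 CPM in DP replicate 2 against 1268 CPM in SPR replicate 2. Uqcrb, a small subunit of complex III, had 1, 17 and 27 counts in DP, 0, 1 and 5 in SPR, and 6, 2 and 5 in SPF, which is 0.421, 6.95 and 18.1 CPM in DP, against at most 1.33 CPM in SPR and 2.72 CPM in SPF. The 9-library fit gave a log2 fold change of DP over SPR of 3.51 (SE 1.18, edgeR adjusted p = 0.609), and the block fit called it at 3.71 (SE 0.627, adjusted p = 0.00858), though not without replicate 3 (adjusted p = 0.281). Like Cycs, it passed the filter only through DP libraries, so its test was conditional on a high DP value. Of the windows at its 3′ end 40.6% are shared with 4 other annotated genes, so these counts are uncertain. Cycs, cytochrome c, had 2.10, 14.3 and 10.7 CPM in DP, 5.23, 0 and 7.98 CPM in SPR, and 0, 0.930 and 5.58 CPM in SPF, and was called in no comparison.

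The nuclear-encoded genes as a whole stood at like levels in the 3 populations. Their sum was 19741, 25641 and 21264 CPM in DP, 21937, 22833 and 21107 CPM in SPR, and 19137, 20876 and 22145 CPM in SPF. The means were 22215 ± 3063 CPM in DP, 21959 ± 863 CPM in SPR against 20719 ± 1510 CPM in SPF (SD, n = 3 each). The ranges of the groups overlapped. In DP over SPR the sum had a ratio of 0.900, 1.12 and 1.01 in replicates 1, 2 and 3. In replicate 3 the complexes were split, with 0.998 for complex I and 0.931 for complex III. Complexes II, IV and V had 1.05, 1.01 and 1.04. Of the 85 tested, 20 (23.5%) were higher in DP in replicate 1, against 57.4% of all genes tested. In replicate 2 it was 61 (71.8%, against 52.7% of all genes) and in replicate 3 it was 47 (55.3%, against 52.0%). Over the 9 libraries the SD of log2(CPM + 1) had a median of 0.27 among the 85 genes, beside 0.37 among all genes tested and 1.70 among the 6 mitochondrial messenger RNAs.

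**Figure D4:**
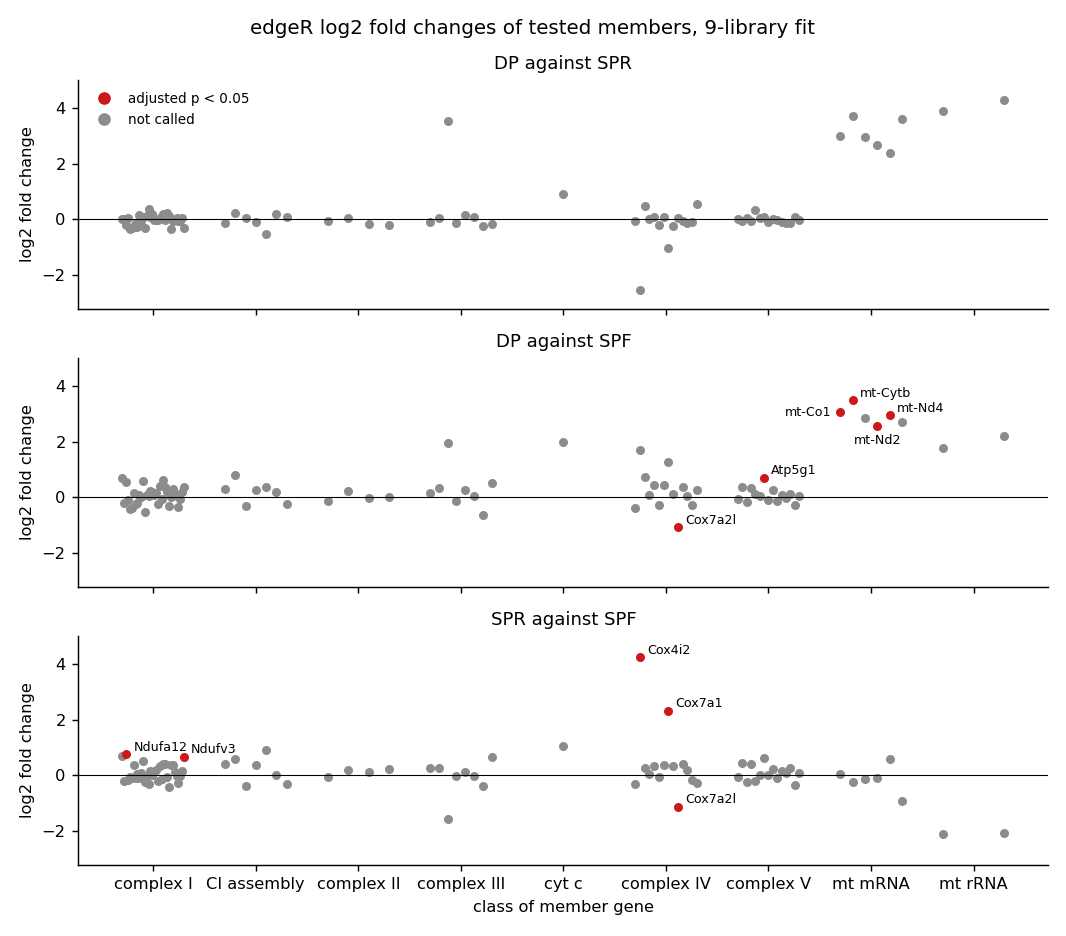
edgeR log2 fold changes of the tested members by class for DP against SPR, DP against SPF and SPR against SPF (9-library fit), with 1 point per gene and called genes in red. Mitochondrial tRNAs and the accessory genes Atp5s and Atp5sl are not drawn. Points of the nuclear-encoded complexes lie near 0 apart from a few in complexes III and IV, and the medians over all 85 nuclear-encoded members are -0.02, 0.11 and 0.10.

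For DP against SPR, edgeR in the 9-library fit called 0 of 85 nuclear-encoded members, with 3 (Cox4i2, Uqcrb and Cox7a1) at an unadjusted p under 0.05, against 0.0107% called and 6.57% under that unadjusted p among all genes, and DESeq2 called 0. Their median log2 fold change was -0.02, beside -0.01 over all genes tested. The block fit called 3, Uqcrb above and Cox4i2 and Cox7a1 below, against 1.97% and 1.51% of all genes. In DP against SPF 1 member was higher (Atp5g1) and 1 lower (Cox7a2l), against 7.55% and 6.18% of all genes, and the median was 0.11 beside 0.01. At an unadjusted p under 0.05 there were 12, against 30.4% of all genes. In SPR against SPF 4 were higher (Cox4i2, Cox7a1, Ndufa12 and Ndufv3) and 1 lower (Cox7a2l), against 9.14% and 7.58% of all genes, with a median of 0.10 beside 0.00.

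Complex I, the NADH dehydrogenase, had 34 subunit genes tested, from 41.7 CPM (Ndufa5) to 833 CPM (Ndufv3) on average over the 9 libraries, and 28 of them above 100 CPM. Their sum was 7576 ± 775 CPM in DP, 7669 ± 313 CPM in SPR against 7102 ± 608 CPM in SPF (SD, n = 3 each). Ndufv3, a small subunit of the NADH-oxidizing arm, had 836, 921 and 785 CPM in DP, 949, 1102 and 1014 CPM in SPR, and 460, 594 and 836 CPM in SPF. SPR lay above both other groups, and it was higher than SPF by 0.68 on the log2 scale (SE 0.210, edgeR adjusted p = 0.0499). The accessory subunit Ndufa12 had 112, 157 and 99.7 CPM in DP, 119, 162 and 127 CPM in SPR, and 58.5, 80.9 and 96.7 CPM in SPF, with a log2 fold change of 0.76 for SPR over SPF (SE 0.233, adjusted p = 0.0464). Both calls stood just under the threshold and were lost without any 1 SPR library, without SPF replicate 1 or without SPF replicate 2. DP values of Ndufa12 also lay above all SPF values, with 0.57 for DP over SPF (SE 0.234, adjusted p = 0.132). The 7 tested complex I assembly factors had means of 8.75 to 65.8 CPM, and 0 were called in any comparison. At an unadjusted p under 0.05 there was 1 in DP against SPF and 2 in SPR against SPF, against 30.4% and 32.1% of all genes.

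Complex II, succinate dehydrogenase, which also works in the tricarboxylic acid cycle, had no call among its 4 subunits. Their sum was 621 ± 48.5 CPM in DP, 620 ± 58.2 CPM in SPR against 561 ± 20.2 CPM in SPF (SD, n = 3 each). Sdha, the flavoprotein, had 191, 184 and 157 CPM in DP, 188, 180 and 167 CPM in SPR, and 200, 187 and 163 CPM in SPF. The iron-sulfur subunit Sdhb had 248, 358 and 269 CPM in DP, 280, 306 and 235 CPM in SPR, and 234, 234 and 233 CPM in SPF. The membrane anchors Sdhc and Sdhd averaged 34.1 and 120 CPM over the 9 libraries. Log2 fold changes ran from -0.20 to 0.25 over the 4 genes and 3 comparisons, with 0 at an unadjusted p under 0.05. Over all genes the share under that p was 6.57% in DP against SPR, 30.4% in DP against SPF and 32.1% in SPR against SPF.

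Complex III, ubiquinol-cytochrome c reductase, had 8 genes tested, with sums of 2008 ± 232 CPM in DP, 2072 ± 127 CPM in SPR against 2069 ± 127 CPM in SPF (SD, n = 3 each). Its most counted gene was Uqcrh, the hinge subunit, with 592, 623 and 770 CPM in DP, 697, 618 and 955 CPM in SPR, and 980, 939 and 985 CPM in SPF. All DP values lay below SPF, without a call in the 9-library fit (log2 fold change -0.62, SE 0.202, adjusted p = 0.0672), while DESeq2, which called 17.4% of all genes, called it. In complex V, the ATP synthase, 15 genes had sums of 6945 ± 967 CPM in DP, 6752 ± 441 CPM in SPR against 6063 ± 664 CPM in SPF (SD, n = 3 each). The most counted of all members was Atp5d, the delta subunit, with 988, 1278 and 1295 CPM in DP, 1231, 1268 and 1125 CPM in SPR, and 775, 858 and 1038 CPM in SPF.

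The membrane ring of the ATP synthase is built from subunit c, which several nuclear genes encode with the same mature protein. Atp5g1 had 71.9, 116 and 102 CPM in DP, 81.3, 106 and 76.9 CPM in SPR, and 52.6, 60.5 and 55.8 CPM in SPF. DP exceeded SPF by 0.71 on the log2 scale (SE 0.212, adjusted p = 0.0496), in 3 of 3 DP libraries. The call was lost without DP replicate 2, DP replicate 3 or any 1 of the SPF libraries, with adjusted p from 0.0755 to 0.180. Atp5g3 had 639, 725 and 605 CPM in DP, 655, 651 and 564 CPM in SPR, and 525, 488 and 560 CPM in SPF, and was not called. Atp5g2 stayed between 7.99 and 15.4 CPM in the 9 libraries. At the 3′ end of Atp5g1, 20.3% of windows are shared with 9 other annotated genes.

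Complex IV, cytochrome c oxidase, held the nuclear-encoded member with the largest fold change between groups, among its paralogs known for tissue-restricted use. Its summed level was 4729 ± 1053 CPM in DP, 4519 ± 155 CPM in SPR against 4616 ± 191 CPM in SPF (SD, n = 3 each). Cox4i2, the counterpart of the common Cox4i1 that is known from lung and from cells short of oxygen, had 2, 7 and 2 counts in DP, 16, 40 and 26 in SPR, and 0, 1 and 2 in SPF. These are 0.841, 2.86 and 1.34 CPM in DP, 5.58, 17.2 and 6.92 CPM in SPR, and 0, 0.465 and 0.929 CPM in SPF. All SPR libraries lay above all DP and all SPF libraries. With 82 counts in SPR and 3 in SPF, the ratio of SPR to SPF was 19.9 (95% counting interval 6.56 to 98.3), and edgeR called it (log2 fold change 4.24, SE 0.880, adjusted p = 0.00862). The gene passed the filter only through SPR replicate 2, so its test was conditional on a high SPR value. DP over SPR was -2.52 in the 9-library fit (SE 0.728, adjusted p = 0.474) and -2.58 with the replicate block (SE 0.459, adjusted p = 0.0110), and the ratio of DP to SPF was 3.77 (95% counting interval 0.997 to 21.1). Cox4i1 itself, at 686 to 940 CPM in DP, 822 to 909 CPM in SPR and 1051 to 1054 CPM in SPF, was not called.

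Cox7a1, the form known from heart and skeletal muscle, had 7.99, 14.7 and 10.0 CPM in DP, 15.4, 30.6 and 19.9 CPM in SPR, and 2.27, 2.79 and 7.90 CPM in SPF. The groups overlapped in none of the 3 comparisons. Cox7a1 passed the filter of 10 CPM only through SPR and DP libraries, so its tests against SPF were conditional on high values there. SPR was higher than SPF by 2.31 on the log2 scale (SE 0.472, edgeR adjusted p = 0.00802), and the log2 fold change of DP over SPR was -1.04 with the replicate block (SE 0.236, adjusted p = 0.0349), a call that the 9-library fit did not make (SE 0.428, adjusted p = 0.705). The block fit lost that call without replicate 1, 2 or 3 (adjusted p from 0.0603 to 0.143). DP over SPF was 1.27 (SE 0.493, adjusted p = 0.112). The common form Cox7a2 had 111, 217 and 139 CPM in DP, 140, 152 and 234 CPM in SPR, and 119, 128 and 160 CPM in SPF, with no call.

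Cox7a2l, a related protein known for joining complexes III and IV into supercomplexes, went the other way. It had 304, 397 and 397 CPM in DP, 410, 289 and 330 CPM in SPR, and 937, 760 and 504 CPM in SPF. Every SPF library lay above every Th17-culture library and the SPF libraries were themselves spread widely. Its log2 fold change over SPF was -1.07 in DP (SE 0.244, edgeR adjusted p = 0.0172) and -1.12 in SPR (SE 0.244, adjusted p = 0.0109). The call for DP was lost without DP replicate 1 (adjusted p = 0.0604), DP replicate 2 (adjusted p = 0.0504) or SPF replicate 2 (adjusted p = 0.0614), and that for SPR without SPR replicate 2 (adjusted p = 0.0508). Cox7a2l lies on chromosome 17 from 83501918 to 83517330 on the minus strand, Cox7a1 on chromosome 7 from 30184144 to 30186078 on the plus strand, and Cox4i2 on chromosome 2 from 152754173 to 152765037 on the plus strand (GRCm38). The 3′ ends of all 3 are shared with no other annotated gene, and no annotated gene overlaps them.

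**Figure D5:**
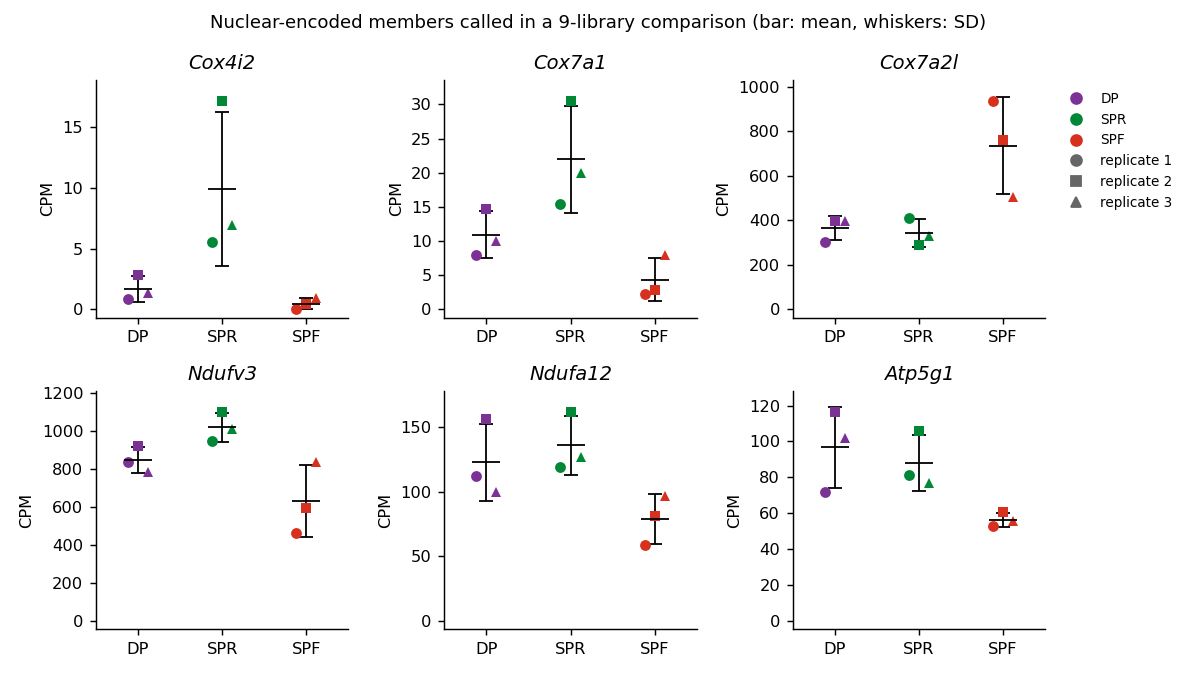
CPM of the 6 nuclear-encoded members called in a 9-library comparison, with 1 point per library, marker shapes for replicates 1 to 3, horizontal bars for the mean and whiskers for the SD (n = 3). Cox4i2 and Cox7a1 are highest in SPR, at up to 17.2 and 30.6 CPM, and Cox7a2l is highest in SPF, at 504 to 937 CPM.

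Other restricted forms were at the edge of detection. Cox6a2, the muscle form, had at most 1.72 CPM in any library, against 488 to 1244 CPM for Cox6a1. Cox6b2, known from testis, had 0.454 to 5.32 CPM, against 322 to 444 CPM for Cox6b1. Ndufa4l2, a relative of the complex IV subunit Ndufa4 known from cells short of oxygen, had 1 count in all, in SPF replicate 3, against 25.9 to 63.7 CPM for Ndufa4. Of the paralogs looked for, Cox7b2, Cox8b and Cox8c were not analysed here.

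Promoters of nuclear respiratory genes are known for sites of NRF1 and of ETS factors such as GABP. In RefSeq promoters (GRCm38.p6, 250 bases before to 50 after the start), GCGCNTGCGC was found on either strand in 19 of the 76 nuclear-encoded members with a promoter in the table, 25% against 5.19% of 27025 genes and 7.17% of the 17492 protein-coding ones. CCGGAAG was found in 18, 23.7% against 9.93% and 12.95%, and both motifs can stand in 1 promoter. A match is a description of the letters only. The promoters of the complex IV genes Cox7a1, with its calls, of its common counterpart Cox7a2 and of the widely used Cox6a1 are shown for comparison. In Cox6a1 the capitals mark matches to the motifs, and in Cox7a1 and Cox7a2, which hold neither, they mark each CG.
Cox7a1 (chr7:30183921-30184220, strand +): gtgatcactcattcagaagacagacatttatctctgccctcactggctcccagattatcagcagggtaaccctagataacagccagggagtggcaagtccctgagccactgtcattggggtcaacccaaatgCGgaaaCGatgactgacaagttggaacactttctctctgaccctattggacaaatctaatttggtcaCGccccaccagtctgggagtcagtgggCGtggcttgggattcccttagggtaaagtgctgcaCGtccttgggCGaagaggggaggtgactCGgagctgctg
Cox7a2 (chr9:79759804-79760103, strand -): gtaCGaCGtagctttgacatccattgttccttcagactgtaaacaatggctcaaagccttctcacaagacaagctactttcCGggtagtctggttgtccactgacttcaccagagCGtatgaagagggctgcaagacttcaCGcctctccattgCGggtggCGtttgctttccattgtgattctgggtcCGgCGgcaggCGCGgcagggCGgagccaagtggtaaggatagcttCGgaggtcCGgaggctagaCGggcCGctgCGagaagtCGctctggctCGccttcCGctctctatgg
Cox6a1 (chr5:115348909-115349208, strand -): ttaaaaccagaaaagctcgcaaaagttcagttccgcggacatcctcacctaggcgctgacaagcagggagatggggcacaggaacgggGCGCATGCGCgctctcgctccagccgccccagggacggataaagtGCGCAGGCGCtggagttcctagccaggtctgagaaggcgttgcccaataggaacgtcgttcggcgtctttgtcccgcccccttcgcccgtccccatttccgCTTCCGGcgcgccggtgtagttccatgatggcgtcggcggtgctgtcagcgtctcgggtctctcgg
Cox7a1 has 7 CG dinucleotides in 300 bases, Cox7a2 has 20 and Cox6a1 has 32. The promoter of Cox7a2l has 19 CG and neither motif, and the promoters of Atp5g1, Ndufa12 and Ndufv3 hold neither motif.

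Genes that build, supply or steer the respiratory chain were counted next to it, from lists chosen with earlier results of these data known. In DP against SPR, 0 genes of the 8 mitochondrial lists were called in the 9-library fit, the block fit or DESeq2. At an unadjusted p under 0.05 in the 9-library fit there were 0 or 1 in each list, against 6.57% of all genes. For the counts against SPF, 7.55% of all genes were higher and 6.18% lower in DP, and 9.14% were higher and 7.58% lower in SPR. Of 34 assembly factors outside the name rule, 1 was higher and 2 were lower in DP than in SPF, and 2 higher and 1 lower in SPR than in SPF, which is near or below the shares over all genes. Sco2, which delivers copper to complex IV, had 42.5, 42.5 and 51.5 CPM in DP and 45.0, 40.0 and 46.8 CPM in SPR, against 21.8, 21.4 and 25.6 CPM in SPF. Sdhaf1, an assembly factor of complex II, had 58.9, 56.4 and 55.5 CPM in DP and 54.8, 42.6 and 54.0 CPM in SPR, against 99.8, 118 and 84.6 CPM in SPF. Sco2 was higher and Sdhaf1 lower than SPF in both DP (log2 fold changes 0.91 and -0.90, edgeR adjusted p = 0.00998 and 0.0102) and SPR (0.92 and -1.02, adjusted p = 0.00652 and 0.00383).

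Among proteins of mitochondrial membranes and import, 5 of 17 were higher and 0 lower both in DP and in SPR against SPF, with median log2 fold changes of 0.57 and 0.52, beside 0.01 and 0.00 over all genes. In fits of the compared groups alone, 3 were higher in DP and 4 in SPR. Hspa9, the matrix chaperone that pulls in imported proteins, had 141, 224 and 138 CPM in DP and 157, 254 and 145 CPM in SPR, against 61.7, 55.4 and 65.1 CPM in SPF. Vdac1, the outer membrane channel, had 226, 287 and 233 CPM in DP and 318, 390 and 286 CPM in SPR, against 124, 123 and 159 CPM in SPF. Neither gene's Th17-culture values overlapped SPF, and the log2 fold changes of SPR over SPF were 1.58 for Hspa9 (SE 0.255, adjusted p = 0.00227) and 1.27 for Vdac1 (SE 0.185, adjusted p = 0.00130).

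Mitochondrial ribosomal proteins, which work on the ribosomal RNAs above, had 4 of 72 higher and 0 lower in DP against SPF and again 4 and 0 in SPR against SPF, with medians of 0.07 and 0.10, a smaller share called higher than among all genes. In a fit of the DP and SPF libraries alone 1 was called. Both comparisons use the same SPF libraries. Of 27 genes for mitochondrial DNA maintenance, transcription and RNA handling, 2 were higher in DP than in SPF (Grsf1 and Pnpt1) and 2 in SPR than in SPF (Top1mt and Twnk), with 0 lower in either, again no larger a share than over all genes. Top1mt passed the filter only through SPR replicate 2, and Pnpt1 only through DP and SPR libraries. Their calls were therefore conditional on high values there. Pnpt1, an RNA-degrading enzyme of mitochondria, had 22.7, 24.1 and 10.0 CPM in DP, 15.7, 12.9 and 16.2 CPM in SPR, and 5.90, 6.51 and 9.29 CPM in SPF. Of 14 genes of the tricarboxylic acid cycle, edgeR called 0 in any comparison. At an unadjusted p under 0.05 there were 3 in DP against SPF and 2 in SPR against SPF, where DESeq2 called 1. Over all genes 30.4% and 32.1% were under that p, and DESeq2 called 19.7% in SPR against SPF. Of 8 mitochondrial translation factors 0 were called by either tool, with 1 at that p in each of those comparisons, against the same 30.4% and 32.1%.

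Of 9 regulators of nuclear respiratory genes tested, Pprc1, a coactivator related to PGC-1, had 22.7, 36.0 and 16.7 CPM in DP and 19.5, 43.0 and 24.7 CPM in SPR, against 7.26, 11.6 and 5.58 CPM in SPF. It was higher than SPF in DP (log2 fold change 1.55, SE 0.410, edgeR adjusted p = 0.0312) and in SPR (1.79, SE 0.405, adjusted p = 0.0130). Yy1 was lower than SPF in both (-0.71 and -0.68, adjusted p = 0.0493 and 0.0488), and Myc was higher in DP (0.79, adjusted p = 0.0409), calls that fits of the compared groups alone did not make. Of 14 genes for other electron entry, 2 were higher in DP than in SPF, Sqor and Coq2, an enzyme of ubiquinone synthesis. In SPR against SPF 2 were higher, Coq2 and Coq4, where 7.55% (DP) and 9.14% (SPR) of all genes were higher. Fits of the compared groups alone called only Sqor in DP and only Coq2 in SPR. Sqor and Coq4 passed the filter only through DP and SPR libraries, so their calls were conditional on high values there.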

How the data were processed

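Libraries were prepared by MARS-seq, a 3′ RNA-seq method, and sequenced on a NextSeq 500. The authors deposited raw counts per gene in 1 table for the 9 libraries. The submitters' processing notes name cutadapt, STAR, SAMtools and HTSeq and the mm10 build. Versions, annotation, strand setting and use of molecular identifiers were not given in the sources used here. Of the table, 1 line without a gene name and 1 column of no sample were left out. CPM was computed from column totals. Genes above 10 CPM in at least 1 library (9310) were tested on the counts with edgeR 4.0.16 (R 4.3.3) by its quasi-likelihood test with TMM factors, in 1 fit of all 9 libraries, with Benjamini-Hochberg adjustment and a threshold of 0.05. DESeq2 1.42.0 was an alternative. The scripts were tested on simulated data. A gene tied to the green sorting reporter is not reported here.

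Over all genes tested, deviations from the group means correlated between DP and SPR libraries of the same replicate number (r = 0.222, 0.401 and 0.407). That comparison therefore also has a fit of its own 6 libraries, blocked by replicate number. For DP and SPF (0.124, -0.02 and -0.15) and for SPR and SPF (0.0913, 0.0954 and -0.12) they did not in every pair. Other alternatives were RLE factors, library totals, other filters, fits of the compared groups, and leaving out libraries.

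Named genes are the mitochondrial-encoded genes tested, called members (up to 3 in each direction per complex), the most counted member of each complex, Cycs, complex II, paralogs known from other tissues, the 3 smallest p where none was called, and the 10 genes most like the mitochondrial-encoded sum. Members, lists and rules were chosen with earlier results of these data known. Positions are from GENCODE on GRCm38 and promoters from RefSeq on GRCm38.p6.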

Additional observations from a re-analysis of the deposited data

How the results depend on the processing

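With DP replicates 2 and 3 left out together, the log2 fold changes of DP over SPR turned to -0.089 for mt-Cytb, -0.58 for mt-Nd1, -0.54 for mt-Rnr1, -4.59 for mt-Tt and -0.64 for Uqcrb, and those of DP over SPF to -0.32 for mt-Cytb, -0.71 for mt-Nd1, -0.91 for mt-Nd5, -2.66 for mt-Rnr1, -1.39 for mt-Rnr2 and -3.78 for mt-Tt. The value of mt-Rnr1 in DP over SPF ran from -0.39 (without DP replicate 3) to 2.34 (without DP replicate 1) with 1 library left out, and was -0.58 with the replicate block and without replicate 3. In the fit without DP replicates 2 and 3, DP is 1 library, assumed to vary like the other groups. The values of mt-Tt in that fit rest on 0 counts in DP and depend on the prior count, so they are no measured fold.

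Shares over all genes tested are given above for DESeq2, the block in DP against SPR and the fit of SPR and SPF alone. For the other settings, here and above, those shares were not examined. A changed count of members there is not read as a result about the members. In DP against SPR the count of mitochondrial-encoded genes called, 0, became 4 with DESeq2, 8 with no filter, 7 with the replicate block, 0 to 9 with the block and 1 replicate left out, and 0 to 3 with 1 library left out. That of nuclear-encoded genes, 0, became 2 with no filter, 3 with the replicate block, 1 with the block in DESeq2, and 1 to 3 with the block and 1 replicate left out.

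In DP against SPF the mitochondrial-encoded count, 4, became 9 with no filter, 2 in the fit of both groups alone, 1 with the replicate block, 2 with the block in DESeq2, 0 to 7 with the block and 1 replicate left out, 0 to 8 with 1 library left out, and 0 without DP replicates 2 and 3. The nuclear-encoded count, 2, became 6 with DESeq2, 1 with RLE factors, 8 with no filter, 1 with filterByExpr, 1 in the fit of both groups alone, 0 with the replicate block, 1 with the block in DESeq2, 0 to 5 with the block and 1 replicate left out, 0 to 3 with 1 library left out, and 0 without DP replicates 2 and 3.

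In SPR against SPF the mitochondrial-encoded count, 0, became 2 with no filter, 2 in the fit of both groups alone, 2 with the replicate block, 2 with the block in DESeq2, and 0 to 3 with the block and 1 replicate left out. The nuclear-encoded count, 5, became 8 with no filter, 3 in the fit of both groups alone, 0 to 7 with the block and 1 replicate left out, and 2 to 5 with 1 library left out. With the replicate block, the lists of related genes had 1 call (membrane and import), 0 (ribosomal proteins), 0 (DNA and RNA handling) and 0 (assembly factors) in DP against SPF, and 4, 3, 0 and 3 in SPR against SPF. The cause of these changes was not tested. Leaving out a library also leaves fewer samples in the fit. A tally was made of log2 fold changes of the mitochondrial-encoded genes tested and the nuclear-encoded genes called, in chosen comparisons of each gene. Of the mitochondrial-encoded genes, only mt-Nd4, mt-Rnr1 and mt-Rnr2 entered it for SPR against SPF. In it 460 values kept their direction and side of the threshold, 78 lost a call, 77 gained one and 13 changed sign. The 460 include values called in neither fit, so they are no measure of stable calls. Members of a few counts per library, such as Cox4i2, Uqcrb, Cycs and mt-Tt, are limited by depth.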
